A study of Rattus norvegicus with 6 samples.

Results

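The genes described here encode substance P, calcitonin gene-related peptide (CGRP), other neuropeptides of sensory and dorsal horn neurons, the substance P receptor and a subunit of the CGRP receptor. They were selected by gene symbol, and the 10 symbols *Tac1*, *Tacr1*, *Calca*, *Calcb*, *Ramp1*, *Sst*, *Nts*, *Cck*, *Grp* and *Cartpt* each matched 1 of the 22050 genes of the deposited table. Spinal cord tissue was sequenced as 3 libraries from rats with neuropathic pain after spared nerve injury (SNI), the SNI-NP group, and as 3 libraries from sham-operated rats. All rats were adult male Sprague-Dawley animals, and the labels name no other treatment. In this model some branches of the sciatic nerve are cut while the sural branch is left intact. For the RNA-seq libraries, the interval between surgery and tissue collection and the spinal segment are not given in the sources used here, while the study names lumbar segments for its qPCR. The labels number the replicates without saying whether each is 1 animal, so the p-values measure only the spread between these libraries, which may be technical.

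Substance P and CGRP are made, among other cells, by small sensory neurons of the dorsal root ganglia. These neurons carry the peptides along their axons and release them in the superficial dorsal horn. There substance P acts on the neurokinin 1 receptor and CGRP on a receptor built from *Calcrl* and *Ramp1* products. Somatostatin, neurotensin, cholecystokinin and gastrin-releasing peptide are made by local interneurons of the dorsal horn, and somatostatin also by some sensory neurons. CART peptide is found in subsets of spinal neurons, among them autonomic preganglionic neurons. After nerve injury, peptide production in the injured sensory neurons is known to shift, so the comparison of SNI-NP with sham rats addresses whether their transcripts differ in the spinal tissue.

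Levels are given as CPM, which are estimated counts scaled to a common library size by TMM. The libraries held from 16670760 to 18151156 estimated counts, and a count of 0 allowed up to 0.18 CPM in the shallowest library, a limit that covers counting error only. The tissue label was checked against markers. Markers of central myelin and astrocytes were present in all libraries, and so were markers of sensory ganglion neurons. All 12 genes of a list of dorsal root ganglion neuron markers, such as *Scn10a* and *Scn11a*, which encode sodium channels of nociceptors, were found in the table. Their summed level ranged from 427 to 984 CPM over the sham libraries and from 96.7 to 1325 CPM over the SNI-NP libraries. The low value belongs to SNI-NP replicate 1 and the next lowest to Sham replicate 1, and the highest library was 13.7 times the lowest. In such bulk tissue, fewer cells of a type and less RNA per cell cannot be told apart. The tissue is given as spinal cord only, and where the ganglion marker transcripts came from was not tested. The levels of *Tac1*, *Calca* and *Calcb* below therefore cannot be assigned to cells of the spinal cord itself. Of the 12 ganglion markers, 0 passed an unadjusted p of 0.05 and 0 were without counts in all libraries.

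The quasi-likelihood test of edgeR called 0 of the 14426 genes tested (0%) at an adjusted p of 0.05, whereas DESeq2 called 194 (1.32% of those it tested). At an unadjusted p of 0.05 the share called was 10.8% by edgeR (1565 genes), of which 4.91% of all genes were higher and 5.94% lower in SNI-NP libraries, and 9.8% by DESeq2. Of the 10 sensory peptide genes, 9 passed the filter on low counts and *Grp* did not. Of those 9, 0 passed the adjusted threshold by either tool, and 1, *Cartpt*, passed the unadjusted threshold by both, being lower in the SNI-NP libraries. The median log2 difference (the fitted log2 fold change, SNI-NP minus sham) of the 9 tested genes was -0.33, beside 0.01 over all genes tested. This median is the value of *Tac1*. Without SNI-NP replicate 1, *Tac1*, *Calca* and *Calcb* turned positive, to 0.13, 0.28 and 0.51. *Cartpt* was also the only member whose groups did not overlap, and 8.15% of all tested genes lay without overlap in that direction (18.5% in either direction).

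**Figure D1:**
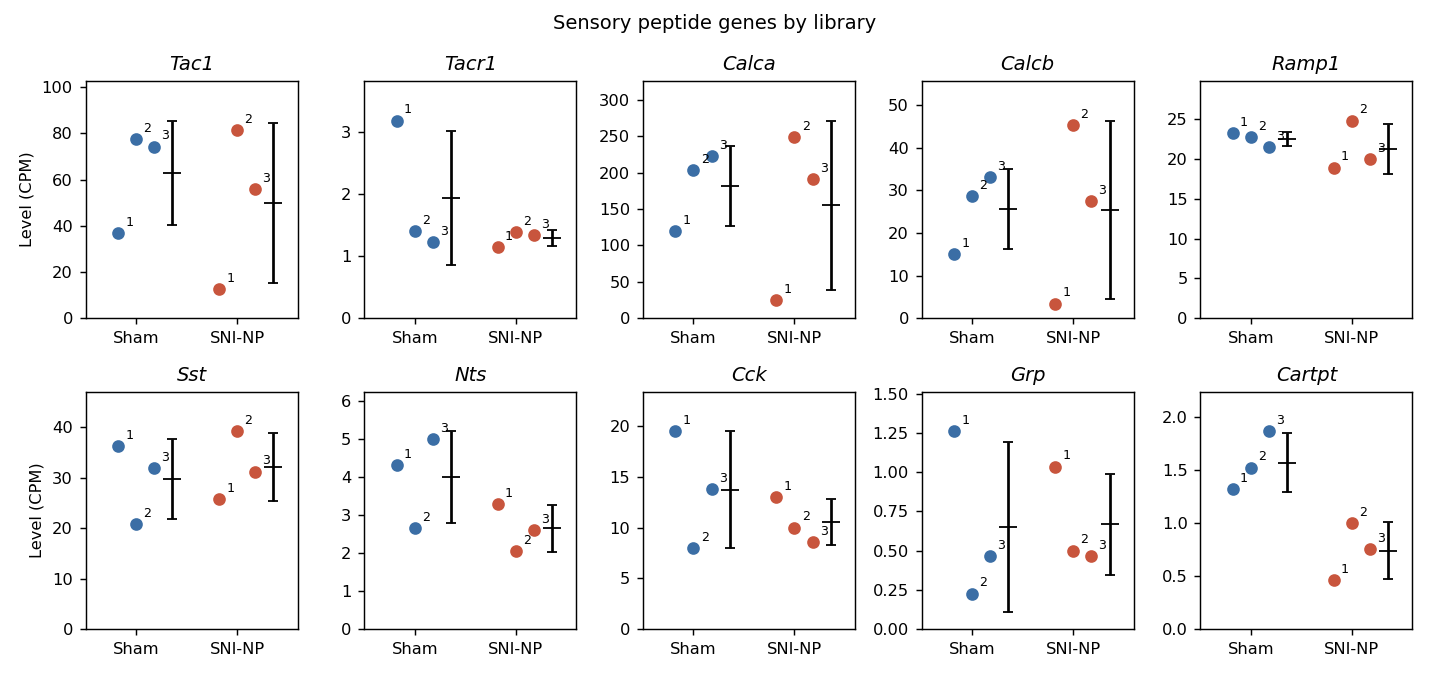
Level in CPM (linear axes from 0) of each of the 10 genes in the 3 sham and 3 SNI-NP libraries, with replicate numbers beside the points and mean ± SD (n = 3) in black. SNI-NP replicate 1 is the lowest of the 6 libraries for 6 genes, among them Tac1, Calca and Calcb, and only for Cartpt do all 3 SNI-NP points lie below all 3 sham points.

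*Tac1* (ENSRNOG00000007374) encodes the precursor of substance P and neurokinin A. It measured 36.7, 77.6 and 74.2 CPM in sham replicates 1 to 3, against 12.7, 81.2 and 55.9 CPM in SNI-NP replicates 1 to 3. The groups overlapped, with replicate 1 the lowest library of each group. Group means were 62.8 ± 22.7 CPM for sham and 50.0 ± 34.7 CPM for SNI-NP (SD, n = 3 each). The log2 difference was -0.33 ± 0.59 (SE; adjusted p = 0.855, edgeR), with a 95% interval from -1.72 to 1.06. Without SNI-NP replicate 1 the direction turned and the log2 difference was 0.13 ± 0.33 (SE).

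*Calca* (ENSRNOG00000011130) encodes calcitonin and, through alternative splicing, alpha-CGRP. A count per gene cannot separate these products. It measured 120, 203 and 223 CPM in the sham libraries, against 25.0, 249 and 191 CPM in the SNI-NP libraries. The highest and the lowest of the 6 libraries were both SNI-NP libraries. The log2 difference was -0.23 ± 0.69 (SE; adjusted p = 0.92, edgeR) and turned to 0.28 ± 0.27 (SE) without SNI-NP replicate 1. *Calcb* (ENSRNOG00000011074), the separate gene for beta-CGRP, measured 15.0, 28.6 and 33.1 CPM in the sham libraries, against 3.45, 45.3 and 27.5 CPM in the SNI-NP libraries. Its range within the SNI-NP group was 13.1-fold, the widest of the 10 genes, against 9.97-fold for *Calca* and 6.39-fold for *Tac1*. Its log2 difference was -0.01 ± 0.74 (SE; adjusted p = 0.997, edgeR), with a 95% interval from -1.74 to 1.72. It was 0.51 ± 0.35 (SE) without SNI-NP replicate 1, and also positive without Sham replicate 2 (0.09) or Sham replicate 3 (0.20). The 95% interval of *Calca* ran from -1.84 to 1.38, so the intervals of all 3 precursors reached beyond 1 log2 unit in both directions, and a difference of that size was not detectable with these libraries.

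The RefSeq promoter table (GRCr8 build, not the build used for the counts) held entries for 8 of the 10 genes, not for *Calcb* and *Cck*. The promoters of *Tac1* and *Calca* are shown since both genes had nearly the same profile over the libraries, and that of *Cartpt* since its groups did not overlap. Each run holds the 250 bases before the annotated start, 5′ to 3′ on the strand of the gene. Capitals mark TGACGCAAT, on either strand, in the first pair and the full cyclic AMP response element TGACGTCA in *Cartpt*.
Tac1, chr4:36645333-36645582, plus strand: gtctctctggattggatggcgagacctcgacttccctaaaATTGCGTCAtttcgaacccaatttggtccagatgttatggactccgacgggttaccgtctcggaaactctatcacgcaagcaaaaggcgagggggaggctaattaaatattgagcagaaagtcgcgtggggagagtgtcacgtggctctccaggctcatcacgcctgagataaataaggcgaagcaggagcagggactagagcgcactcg
Calca, chr1:178317530-178317779, minus strand: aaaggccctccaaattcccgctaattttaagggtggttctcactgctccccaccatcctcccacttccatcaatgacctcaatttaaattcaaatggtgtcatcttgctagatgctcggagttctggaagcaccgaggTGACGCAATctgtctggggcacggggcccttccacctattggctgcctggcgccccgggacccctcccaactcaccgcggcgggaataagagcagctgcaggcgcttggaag
Cartpt, chr2:32991236-32991485, minus strand: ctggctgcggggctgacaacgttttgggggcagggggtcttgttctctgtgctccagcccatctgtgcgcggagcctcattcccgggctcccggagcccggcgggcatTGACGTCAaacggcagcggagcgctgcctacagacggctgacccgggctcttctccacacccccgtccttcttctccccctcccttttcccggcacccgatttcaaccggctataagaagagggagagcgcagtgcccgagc

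The full element TGACGTCA was found in 1 of the 8 promoters and in 1.59% of all 33469 promoters of that length. Its 5-base core TGACG, which the longer motifs contain, was found in 6 of the 8 and in 18.2% of all promoters, on either strand. The 9-base run TGACGCAAT was chosen after the sequences were seen. It lay from 210 to 202 bases before the start of *Tac1*, on the opposite strand, and from 112 to 104 bases before the start of *Calca*. Among all promoters, 31 held it (0.0926%). Since the run was chosen with both sequences known, that share does not measure how unusual its presence in both is. These are letter matches and not measured binding sites.

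Over the 6 libraries the log2 level of *Tac1*, *Calca* and *Calcb* followed that of the summed ganglion neuron markers, with Pearson's r of 0.981, 0.992 and 0.997. The points share their libraries and scaling, and the values are a description. As a share of that sum, *Calca* made up 28.0%, 24.2% and 22.7% in the sham libraries, against 25.9%, 18.8% and 20% in the SNI-NP libraries. *Calcb* made up 3.52%, 3.40% and 3.37%, against 3.57%, 3.42% and 2.87%. These shares lay far closer together than the levels, and the groups overlapped for both genes. *Tac1* made up 8.61%, 9.22% and 7.54%, against 13.1%, 6.13% and 5.85%, with SNI-NP replicate 1 the highest library and the other SNI-NP libraries the lowest. With the ganglion sum as a covariate, an alternative added after the data were seen, the log2 difference was -0.27 ± 0.14 for *Tac1* (SE), -0.28 ± 0.10 for *Calca* (SE) and -0.09 ± 0.12 for *Calcb* (SE). The edgeR adjusted p-values of this fit were 0.399, 0.233 and 0.785. Of these, *Calca* passed an unadjusted p of 0.05 in that fit (0.0226), as did 15.4% of all genes tested.

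**Figure D2:**
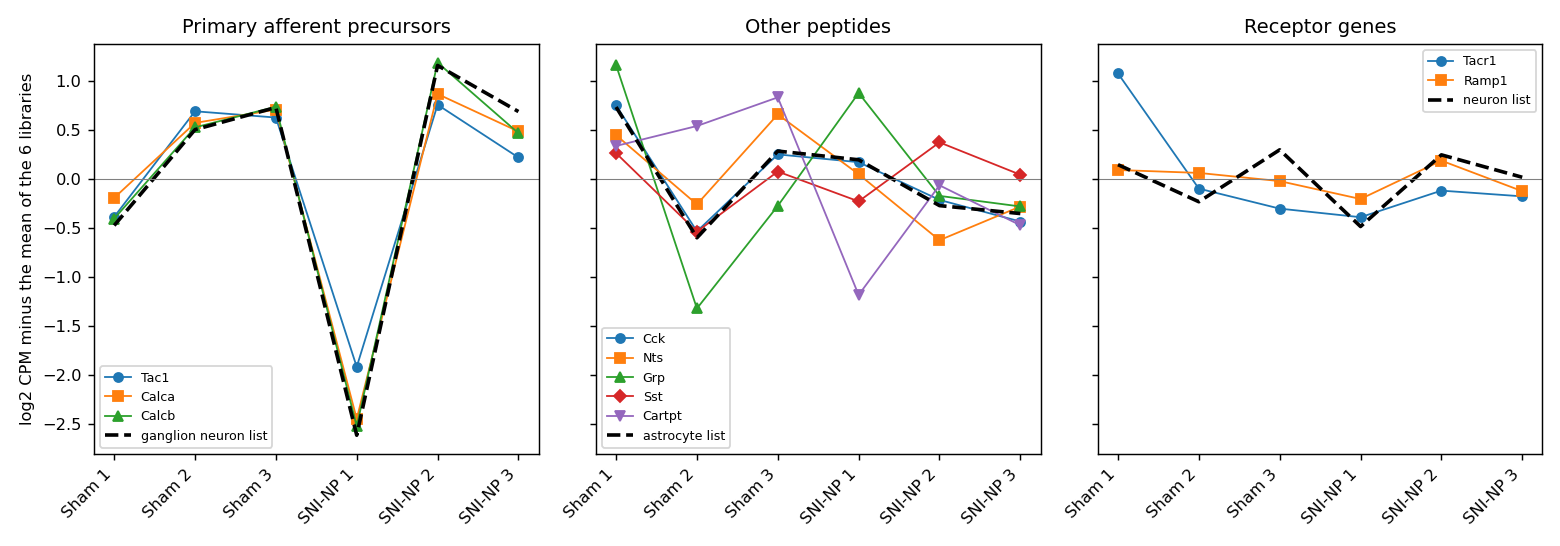
Log2 CPM of each gene minus its mean over the 6 libraries, by library (lines only guide the eye), with the summed level of a marker list as a dashed line in each panel. Tac1, Calca and Calcb follow the ganglion neuron list with a minimum in SNI-NP replicate 1, whereas Cck follows the astrocyte list with its maximum in Sham replicate 1, and neither pattern separates the groups.

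Among the 11270 other genes with a mean of at least 5 CPM, the profile most like that of *Tac1* belonged to *Ppp1r1c*, *Sdcbp* and *Tmem72* (r from 0.994 to 0.996 over 6 libraries). *Ppp1r1c* ranged from 5.23 CPM in SNI-NP replicate 1 to 60.8 CPM in SNI-NP replicate 2, and *Sdcbp* from 179 to 290 CPM between the same libraries. The nearest profiles to that of *Calca* were those of *Grik1*, which encodes a kainate receptor subunit, *Ntng2* and *Scn11a* (r from 0.997 to 0.998). *Scn11a* is itself one of the ganglion markers. *Grik1* was at 5.0 CPM in SNI-NP replicate 1 and from 20.5 to 45.6 CPM in the other 5 libraries.

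Within the SNI-NP group the receptor genes varied least, by 1.21-fold for *Tacr1* and 1.31-fold for *Ramp1*. *Tacr1* (ENSRNOG00000005853), which encodes the neurokinin 1 receptor for substance P, measured 3.18, 1.41 and 1.22 CPM in the sham libraries, against 1.15, 1.39 and 1.33 CPM in the SNI-NP libraries. Sham replicate 1 stood above all other libraries, which lay close together. The log2 difference was -0.58 ± 0.43 (SE; adjusted p = 0.621, edgeR) and shrank to -0.05 without Sham replicate 1. In 2 libraries its estimated counts were not whole. *Ramp1* (ENSRNOG00000019926), which turns the *Calcrl* product into a CGRP receptor, measured 23.2, 22.8 and 21.5 CPM in the sham libraries, against 18.9, 24.8 and 20 CPM in the SNI-NP libraries. The groups overlapped, and the log2 difference of -0.08 had the narrowest interval of the 9 tested genes, from -0.41 to 0.24 (edgeR adjusted p = 0.847). *Calcrl*, the other component of the receptor, measured 29.7, 40.5 and 37.0 CPM in the sham libraries, against 39.2, 16.7 and 35.1 CPM in the SNI-NP libraries. SNI-NP replicate 2, the lowest library for *Calcrl*, was the highest for *Calca* and *Calcb*.

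*Cck* (ENSRNOG00000019321), the cholecystokinin precursor, measured 19.5, 8.0 and 13.8 CPM in the sham libraries, against 13.1, 10 and 8.58 CPM in the SNI-NP libraries. The sham values spanned the whole range of the SNI-NP values. The log2 difference was -0.38 ± 0.33 (SE; adjusted p = 0.667, edgeR) and moved to -0.66 ± 0.24 (SE; unadjusted p = 0.0329, edgeR) without Sham replicate 2. The profile of *Cck* followed the summed level of the 5 astrocyte markers (r = 0.993 over 6 libraries) and not that of the ganglion list (r = -0.43). Its correlation with the dorsal horn list was 0.83. With the astrocyte and dorsal horn lists, r was 0.80 and 0.75 for *Nts*, and 0.85 and 0.82 for *Grp*. That astrocyte sum was 1669, 662 and 1222 CPM for sham and 1149, 831 and 785 CPM for SNI-NP, and its part in the *Cck* values was not tested. *Nts* (ENSRNOG00000004179), the neurotensin precursor, measured 4.32, 2.65 and 5.01 CPM in the sham libraries, against 3.28, 2.05 and 2.61 CPM in the SNI-NP libraries. Only Sham replicate 2 lay within the SNI-NP range, and 1 SNI-NP library, replicate 1, lay above it. The log2 difference was -0.59 ± 0.32 (SE; adjusted p = 0.517, edgeR), and -0.82 ± 0.28 (SE; unadjusted p = 0.0265, edgeR) without Sham replicate 2. Relative to the summed dorsal horn markers *Nts* made up 0.594%, 0.478% and 0.792% in the sham libraries, against 0.455%, 0.397% and 0.457% in the SNI-NP libraries, and these shares did not overlap. The same shares overlapped between the groups for *Cck*, *Sst*, *Grp* and *Cartpt*. From 46.4% to 63.9% of that dorsal horn sum came from *Reln* alone, which had a log2 difference of 0.19 ± 0.16 (SE). *Reln* measured 338, 340 and 311 CPM in the sham libraries, against 459, 305 and 364 CPM in the SNI-NP libraries. The shares of this list and the correlations with it therefore rest largely on 1 gene, and neither was computed without *Reln*. How many of all genes lack overlap in such shares was not computed either. The separation of the *Nts* shares is therefore not read as a difference in *Nts*, whose levels overlapped.

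*Sst* (ENSRNOG00000001837), the somatostatin precursor, measured 36.3, 20.8 and 31.9 CPM in the sham libraries, against 25.8, 39.2 and 31.2 CPM in the SNI-NP libraries. It was the only tested gene of the group with a positive log2 difference, 0.11 ± 0.24 (SE; adjusted p = 0.881, edgeR), and the sign turned when Sham replicate 2 was left out (-0.08) or SNI-NP replicate 2 (-0.06). *Grp* (ENSRNOG00000016999), which encodes gastrin-releasing peptide, known for its part in spinal itch pathways, was counted 21, 4 and 8 times in the sham libraries, against 18, 9 and 8 times in the SNI-NP libraries. These counts were too low for the filter, and the group means were 0.651 ± 0.542 CPM for sham and 0.666 ± 0.320 CPM for SNI-NP (SD, n = 3 each). Replicate 1 was the highest library in each group, the reverse of *Tac1*, *Calca* and *Calcb*. The correlation of *Grp* with *Tac1* over the 6 libraries was -0.75, and that with *Cck* was 0.84.

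*Cartpt* (ENSRNOG00000017712), the CART prepropeptide gene, was counted 22, 27 and 32 times in the sham libraries, against 8, 18 and 13 times in the SNI-NP libraries. These correspond to 1.32, 1.52 and 1.86 CPM and to 0.460, 1.0 and 0.753 CPM. All 3 SNI-NP values were lower than the lowest sham value. As a share of the summed dorsal horn markers the groups overlapped, with 0.182%, 0.275% and 0.295% in the sham libraries, against 0.0638%, 0.193% and 0.132% in the SNI-NP libraries. Over the 6 libraries the correlation of *Cartpt* was 0.65 with the ganglion list, -0.22 with the dorsal horn list and 0.07 with the astrocyte list. Group means were 1.57 ± 0.274 CPM for sham and 0.738 ± 0.270 CPM for SNI-NP (SD, n = 3 each). The log2 difference was -1.08 ± 0.40 (SE) with a 95% interval from -2.01 to -0.15, an unadjusted p of 0.0282 and an adjusted p of 0.436 by edgeR, and DESeq2 gave 0.0421 and 0.408. The exact two-sided permutation p was 0.1, the smallest that 3 against 3 libraries allow. Leaving out SNI-NP replicate 1, the lowest library, gave -0.83 (unadjusted p = 0.0778 by edgeR). Of the 6 fits on 5 libraries, 2 had an unadjusted p under 0.05, namely the fit lacking Sham replicate 1 and the fit lacking SNI-NP replicate 2.

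**Figure D3:**
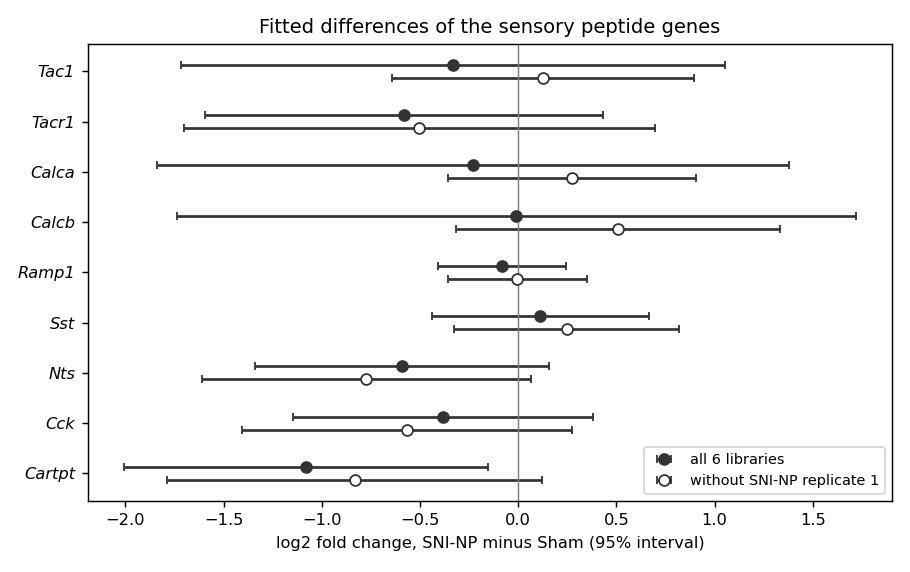
Fitted log2 difference (SNI-NP minus sham) with its 95% interval for the 9 tested genes, from all 6 libraries (filled) and without SNI-NP replicate 1 (open). From all 6 libraries the intervals of Tac1, Calca and Calcb are the widest. They include 0 in both fits, and only their estimates change sign without that library. Only the interval of Cartpt from all 6 libraries lies wholly below 0.

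The abundance of the transcripts was compared per length as FPKM over all 6 libraries. *Calca* was the most abundant, at 183 ± 90.4 FPKM (SD, n = 6), and lay above *Tac1* in all 6 libraries. *Tac1* followed at 54.5 ± 26.8 FPKM and *Sst* at 50.3 ± 11 FPKM, and this pair did not differ beyond its spread, since *Tac1* was the higher in 4 of 6 libraries. *Ramp1* at 27.1 ± 3.20 FPKM and *Calcb* at 26.7 ± 15.4 FPKM did not differ beyond their spread either, with *Ramp1* the higher in 2 of 6 libraries. *Cck* followed at 12.3 ± 4.28 FPKM, below *Calcb* in 4 of 6 libraries and above it in both replicate 1 libraries, so that this pair was not separated either. *Nts* was at 2.42 ± 0.822 FPKM, below *Cck* in all 6 libraries. *Cartpt* at 1.38 ± 0.636 FPKM and *Tacr1* at 1.32 ± 0.638 FPKM were not separated, with *Cartpt* the higher in 3 of 6 libraries. *Grp* was the least abundant at 0.513 ± 0.305 FPKM. The ratio of *Calca* to *Calcb* FPKM was 8.23, 7.31 and 7.0 in the sham libraries, against 7.51, 5.67 and 7.20 in the SNI-NP libraries. The genes are close relatives, and reads common to both could be divided by the counting, although all of their estimated counts were whole.

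A list of 43 partner genes covered receptors, related peptides, and the enzymes that process or degrade these peptides. Of these, 35 were tested, 3 passed an unadjusted p of 0.05 by edgeR, all higher in the SNI-NP libraries (4.91% of all genes did so), and 0 passed an adjusted p of 0.05. DESeq2 gave 4 at the unadjusted threshold, the same 3 and *Chga*. The median log2 difference of the 35 genes was -0.15, with 23 negative values. Over all 14426 genes tested the median was 0.01, with 7085 negative values. *Ramp3*, whose product pairs with that of *Calcrl* to form an adrenomedullin receptor, measured 33.9, 32.7 and 43.8 CPM in the sham libraries, against 65.0, 49.5 and 50.3 CPM in the SNI-NP libraries, without overlap. Its log2 difference was 0.58 ± 0.16 (SE; adjusted p = 0.389, edgeR). *Thop1*, which encodes thimet oligopeptidase, a peptidase that cleaves several neuropeptides, measured 36.6, 34.4 and 37.6 CPM in the sham libraries, against 44.5, 47.0 and 46.0 CPM in the SNI-NP libraries. Its log2 difference was 0.34 ± 0.10 (SE; adjusted p = 0.387, edgeR). *Ece1*, which encodes an endothelin-converting enzyme that also degrades substance P and CGRP in endosomes, measured 166, 186 and 179 CPM in the sham libraries, against 205, 217 and 223 CPM in the SNI-NP libraries. Its log2 difference was 0.28 ± 0.10 (SE; adjusted p = 0.436, edgeR). When 1 library was left out, *Ece1* passed the unadjusted threshold in 2 of 6 fits (without Sham replicate 2 or SNI-NP replicate 1) and did not pass it with the replicate block, whereas *Ramp3* and *Thop1* passed it in 6 of 6 fits and with the block. The groups of *Thop1* and *Ece1* did not overlap either, which with *Cckbr* makes 4 of the 35 partners, and 10.4% of all tested genes lay without overlap in that direction.

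The other main receptors did not separate the groups by the test. The somatostatin receptor gene *Sstr1* averaged 9.67 ± 3.85 CPM for sham and 6.90 ± 1.59 CPM for SNI-NP (SD, n = 3 each), and *Sstr2*, *Sstr3* and *Sstr4* had log2 differences from -0.26 to 0.53. *Sstr5* had 3 counts or fewer in each library. The neurotensin receptor gene *Ntsr1* measured 4.56, 3.72 and 5.35 CPM in the sham libraries, against 1.27, 4.72 and 3.88 CPM in the SNI-NP libraries, with SNI-NP replicate 1 again the lowest library. *Ntsr2* ranged from 15.1 to 37.6 CPM for sham and from 18.4 to 29.5 CPM for SNI-NP. The cholecystokinin receptor gene *Cckbr* measured 1.32, 0.169 and 1.16 CPM in the sham libraries, against 1.38, 1.61 and 1.62 CPM in the SNI-NP libraries, without overlap (log2 difference 0.80 ± 0.61, SE, adjusted p = 0.632 by edgeR). It was counted 22, 3 and 20 times in the sham libraries, against 24, 29 and 28 times in the SNI-NP libraries. Only Sham replicate 2 lay far from the SNI-NP values. *Grpr*, the receptor gene for gastrin-releasing peptide, had 0 counts in each sham library and 1 count in each SNI-NP library, which is within the limit that a count of 0 allows. A negative log2 difference was found for 7085 of all 14426 genes tested, 5 of 6 general neuron markers and 1 of the 12 ganglion markers. Of the 12 genes for peptide processing and release, 10 had a negative log2 difference and 0 passed an unadjusted p of 0.05 by edgeR. *Chga*, which encodes chromogranin A, had the smallest p-value among them, with a log2 difference of -0.58 ± 0.28 (SE; adjusted p = 0.488, edgeR), and was the 1 that passed by DESeq2 (unadjusted p = 0.0359). The count of partner genes past the unadjusted threshold was 9 without Sham replicate 2 (14.6% of all genes passed it in that fit), the library with the lowest *Chga* and *Cck*, and *Chga* then had a log2 difference of -0.86 ± 0.12 (SE; adjusted p = 0.182, edgeR).

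**Figure D4:**
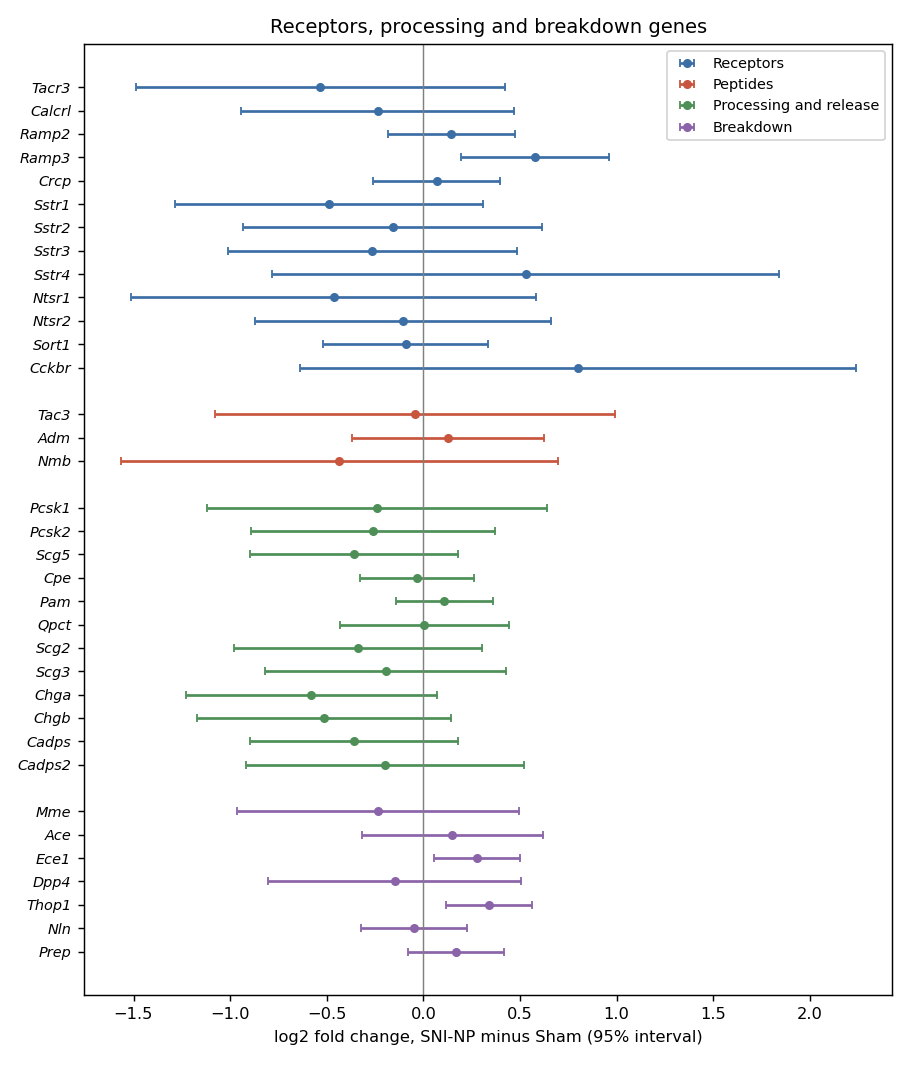
Log2 difference (log2 fold change, SNI-NP minus sham) with its 95% interval for the 35 tested partner genes, grouped as receptors, peptides, processing and release, and breakdown. The intervals of Ramp3, Ece1 and Thop1 lie above 0, and those of the other 32 genes include 0.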

How the data were processed

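RNA was extracted from spinal cord tissue and sequenced on an Illumina instrument as 6 libraries, 3 sham and 3 SNI-NP, grouped by the sample descriptions. The authors mapped the reads to the genome release called Rat6 and kept unique sequences. The submitters' processing notes name FastQC, STAR and HTSeq. Versions, annotation release and strand setting are not given in the sources used here, so overlapping and antisense genes cannot be separated. Estimated counts per gene, unnormalized, were deposited by the authors, and 2018 of 22050 genes had a count that was not whole. FPKM values deposited by the authors were used for comparing genes per length and for gene length. A count of 0 allows up to 3 counts.

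Estimated counts were rounded. The quasi-likelihood test of edgeR 4.0.16 (R 4.3.3), after TMM scaling and filterByExpr, compared the groups with no other term, and Benjamini-Hochberg adjustment ran over the 14426 genes left. The standard error was taken from the fold change and the F statistic. The 95% intervals used the residual degrees of freedom plus the prior degrees of freedom that edgeR estimates over all genes. Correlations used log2(CPM + 0.1). The named genes are the 10 members, their main receptors, partner genes with an unadjusted p-value under 0.05, and, for *Tac1* and *Calca*, the 3 genes with the highest correlation. *Cckar*, *Chga*, *Nmb* and *Slc17a6* were named after their values were seen. A result on 1 marker gene and its list is not reported here. The members and lists were chosen with earlier results of these data known. Alternatives were DESeq2 version 1.42.0, RLE and upper-quartile factors, 2 other filters on low counts, a block by replicate number, gene-length offsets by loess (span 0.5), FPKM ratios, leaving out each library, and 2 covariates added later. On simulated counts of 14426 genes, 200 of them changed by 2 on the log2 scale between SNI-NP and sham, edgeR recovered 91.5%, and unchanged genes made up 7.58% of its calls, against 95.5% and 21.7% for DESeq2. With 0 genes changed, edgeR called 1 gene and DESeq2 21. The changed genes were drawn only from genes above a minimum mean count, and each gene was simulated on its own. The share recovered therefore does not describe genes with few counts or genes that vary together between libraries.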

Additional observations from a re-analysis of the deposited data

How the results depend on the processing

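No sensory peptide gene passed an adjusted p-value under 0.05 in any setting. The number of genes passing it over the whole table was 0 by edgeR but 194 by DESeq2 and 203 with the ganglion neuron list as a covariate, and 0 to 222 when each library was left out (222 without SNI-NP replicate 1, 2 without Sham replicate 2). At an unadjusted p-value under 0.05 these fits gave 908 to 2134 genes, namely 2134 without Sham replicate 2, 908 without Sham replicate 1, 917 without SNI-NP replicate 3 and 1019 without Sham replicate 3. The number of peptide genes at that level was 1, and 0 with at least 10 counts in every library, a filter that removes *Cartpt* and with which the number without overlap was also 0. It was 2 with the ganglion covariate (*Calca* and *Cartpt*, beside 2219 of all genes, or 15.4%) and 3 with the dorsal horn list as a covariate (beside 1807, or 12.5%), in which *Tac1* had a log2 difference of -1.02 and 46.4% to 63.9% of the list's level came from *Reln*. The number of partner genes was then 5. Leaving out 1 library gave 0 to 2 peptide genes at that level (0 without Sham replicate 3, SNI-NP replicate 1 or SNI-NP replicate 3). The range for partner genes was 2 to 9. Both highest numbers came without Sham replicate 2, where 14.6% of all genes passed. From 1 to 3 peptide genes were without overlap, which fewer libraries make easier, and the share of all genes was not computed for these sets. The log2 difference ranged from -0.87 to 0.13 for *Tac1*, -0.75 to 0.28 for *Calca*, -0.73 to 0.51 for *Calcb*, -0.084 to 0.27 for *Sst* and -0.37 to 0.21 for *Grp* (in 4 fits, against 0.04 with no filter), the signs turning within these ranges. *Tacr1*, *Ramp1*, *Nts*, *Cck* and *Cartpt* stayed negative in every setting in which they were tested. Causes other than the filter were not tested.

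The replicate numbers share only a number: the deviations of same-numbered libraries correlated at 0.21, -0.14 and 0.05, and only replicate 1 correlated best with its own number. With the replicate block, 1319 genes in place of 1565 had an unadjusted p-value under 0.05, the number of peptide genes was 1, and the log2 difference was -0.68 for *Calca* and -0.60 for *Tac1*. The overlap of groups has no value under the block or the covariates. Depth limits *Grp*, *Cartpt*, *Cckbr*, *Grpr* and *Sstr5*, which rest on few counts.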

Other observations

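*Nmb*, which encodes neuromedin B, a peptide of small sensory neurons, measured 8.16, 22.1 and 16.4 CPM in the sham libraries, against 5.18, 17.5 and 11.8 CPM in the SNI-NP libraries. Replicate 1 was the lowest library of each group, as for *Tac1*. Its log2 difference (SNI-NP minus sham) was -0.43 ± 0.48 (SE; adjusted p = 0.749, edgeR). *Slc17a6* encodes the vesicular glutamate transporter of excitatory dorsal horn neurons. It measured 50.1, 34.8 and 50.0 CPM in the sham libraries, against 25.3, 26.8 and 27.0 CPM in the SNI-NP libraries. It was the 1 dorsal horn marker of 14 without overlap, and 8.15% of all tested genes lay without overlap in that direction. Its log2 difference was -0.77 ± 0.16 (SE; adjusted p = 0.307, edgeR), and the adjusted p of DESeq2 was 0.00663. *Cckar*, which encodes the other cholecystokinin receptor, was counted 6, 5 and 6 times in the sham libraries, against 9, 14 and 20 times in the SNI-NP libraries, too few to pass the filter. With no filter its log2 difference was 1.29 ± 0.52 (SE; adjusted p = 0.505, edgeR). Of all genes tested, 5.94% were lower and 4.91% higher at an unadjusted p of 0.05.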
